A study of Mus musculus with 2 samples.

Results

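Immature neutrophils of mouse bone marrow were examined here in single-cell RNA sequencing data of 1 control mouse and 1 DKO mouse. Members were chosen by a rule on measured levels: a barcode, the tag that stands for 1 droplet and in most cases 1 cell, was taken by its unique molecular identifiers (UMIs, each standing for 1 captured RNA molecule). It had at least 500 UMIs, at most 20% of them mitochondrial and under 20% of them hemoglobin (Hbb-bt, Hbb-bs, Hba-a1, Hba-a2). S100a8, S100a9, Camp, Ngp and Ltf together held at least 5% of its UMIs, Fcnb was under 3 UMIs, Ltf was at least 1 UMI, and Ltf had at least as many UMIs as Retnlg. The rule found 1804 members among 33691 kept barcodes, 1025 of 19764 in the control library and 779 of 13927 in the DKO library. The levels of the 5 signature genes, of Fcnb, Retnlg, hemoglobin and mitochondrial genes therefore chose the members and are given as a description.

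The study asked what the helicase Ddx41 does in blood formation and whether loss of cGas, the sensor of DNA in the cytosol, alters that role. The DKO mouse carried VavCre:Ddx41 fl/fl together with cGas-/-, and the control, labelled WT, was by the study's methods a littermate with Ddx41 fl/fl, no VavCre and wild-type cGas. Both mice were 2 months old and both carried floxed Ddx41 alleles. Femoral marrow was flushed with PBS. VavCre recombines in hematopoietic cells at large, not only in neutrophils, and also acts in endothelium, and the cGas-/- genotype is not confined to blood cells, so the loss of one gene cannot be told apart from the loss of the other. Each genotype is 1 library, so differences between them carry no test: genotype, animal and library cannot be told apart, and every interval below covers counting error only.

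Neutrophils arise from granulocyte-monocyte progenitors and make their granules in succession. Azurophil granules with myeloperoxidase and serine proteases are filled first, specific granules with lactoferrin (Ltf), lipocalin-2 (Lcn2), cathelicidin (Camp) and Ngp follow as division ends, and gelatinase granules with Mmp9 come last, before the cells gain the chemokine receptor Cxcr2 and leave the marrow. Cebpe, a C/EBP transcription factor, is required for the specific granule genes.

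Ltf, Camp and Ngp, the core of the rule, all lie within 1195 kb of chromosome 9 (GRCm38, the build also called mm10). In the GENCODE M21 annotation Ltf spans 111019271 to 111042767, Ngp spans 110419747 to 110423012 and Camp spans 109847379 to 109849617, all 3 of them protein coding. The windows upstream of Ltf and Ngp are printed below because these genes define the cells, beside that of Ifitm6 on chromosome 7, a marker that the rule did not use. In GENCODE M21 Ifitm6 spans 141015699 to 141017924 on the minus strand. Its window, upstream of the RefSeq start, therefore lies inside the gene as GENCODE annotates it. The sequences come from RefSeq (GRCm38.p6), run from 250 bases before the RefSeq start towards it, and stop before the first annotated exon base. Capitals mark matches to the C/EBP motif TTGCNNAA on either strand, in which N is any base.
Ltf, chr9:111019042-111019270, plus strand: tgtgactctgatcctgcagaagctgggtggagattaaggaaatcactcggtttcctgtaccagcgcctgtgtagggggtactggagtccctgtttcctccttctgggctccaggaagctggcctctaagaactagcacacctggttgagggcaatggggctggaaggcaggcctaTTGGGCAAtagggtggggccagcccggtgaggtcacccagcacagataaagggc
Ngp, chr9:110419558-110419746, plus strand: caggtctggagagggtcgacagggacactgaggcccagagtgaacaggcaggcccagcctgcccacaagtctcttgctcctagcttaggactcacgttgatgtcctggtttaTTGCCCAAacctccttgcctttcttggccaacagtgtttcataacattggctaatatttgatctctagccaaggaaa
Ifitm6, chr7:141016909-141017142, minus strand: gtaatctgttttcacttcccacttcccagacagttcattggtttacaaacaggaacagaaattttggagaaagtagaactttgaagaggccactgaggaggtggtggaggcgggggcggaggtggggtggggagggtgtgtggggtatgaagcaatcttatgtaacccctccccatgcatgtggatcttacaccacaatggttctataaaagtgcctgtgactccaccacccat

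The Ltf match began 75 bases before the RefSeq start and the printed Ngp match 138 bases before it. A second Ngp match, 11 bases before the start, lies outside the printed stretch. The motif was found in 3 of the 12 specific granule genes with a RefSeq window (Ltf, Ngp and Lcn2), and in 9.57% of 32841 windows of all genes. A match describes the letters and is not a bound site, and the absence of one in the Ifitm6 window says only that these letters are not there.

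The members carried the levels of their label's markers. Ltf, the iron-binding granule protein, stood at 10352 CPM (a gene's counts per 1000000 UMIs, both summed over the cells) in control members and at 11822 CPM in DKO members, against 1388 and 1488 CPM in mature neutrophils. Lcn2, which binds bacterial siderophores, stood at 10822 and 9150 CPM in members, and B-lineage barcodes, which do not make it, held 45.1 and 21.1 CPM. Ngp stood at 29591 and 29208 CPM in members, and at 66.1 and 31.5 CPM in B-lineage barcodes. Ifitm6 stood at 3662 and 2632 CPM in members, at 1439 and 1018 CPM in the earlier Fcnb-positive cells and at 2163 and 1173 CPM in mature neutrophils. Lcn2 was found in 99.8% of control members and 99.9% of DKO members, and Ifitm6 in 98.0% and 98.7%. Only Lcn2 and Ifitm6 of these 4 markers were outside the rule. Lcn2 was about as high in early cells, at 11118 and 8368 CPM, so it sets members apart from mature cells (4508 and 3215 CPM) and other lineages but not from the stage before, whereas Ifitm6 was above both neighbouring stages.

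The members held a median of 5954 UMIs and 1878 genes in the control and 6860 UMIs and 2092 genes in the DKO. Their median Ltf count was 62 and 79 UMIs, and their median Retnlg count was 2 and 4 UMIs. At the border with mature cells, 50 control and 31 DKO members had Ltf ahead of Retnlg by 0 to 5 UMIs, and 145 and 86 barcodes just outside had Retnlg ahead by 1 to 5. At the other border 104 and 68 members had 2 Fcnb UMIs, and 87 and 47 barcodes just outside had 3. Since Fcnb, a ficolin made at the myelocyte stage, was cut at a count, a shallower barcode could pass where a deeper one did not. No barcode sequence was a member in both libraries, although 80 were kept in both.

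Some members also carried UMIs of other cells, more often in the control. At least 3 UMIs of one list of another cell type (erythroid, B, T or NK, eosinophil, basophil or mast, macrophage, dendritic, megakaryocyte, stromal or endothelial) were found in 268 control members (26.1%) and 128 DKO members (16.4%). The 7 macrophage genes summed to 234 CPM in control members and 48.8 CPM in DKO members, the 6 megakaryocyte genes to 131 and 21.1 CPM, and the 6 basophil or mast genes to 82.9 and 3.63 CPM. The 10 B-lineage genes summed to 397 and 269 CPM, the 7 erythroid genes other than hemoglobin to 339 and 204 CPM, the 7 dendritic genes to 67.4 and 14.3 CPM and the 7 stromal or endothelial genes to 50.2 and 30.1 CPM. T or NK genes summed to 50.7 and 40.5 CPM, and eosinophil genes to 49.9 and 57.2 CPM with Epx at 0 in both libraries. The monocyte list stood at 1052 and 793 CPM, of which Ly6c2, which neutrophils also express, was 796 and 756 CPM. Among its other genes, F13a1 stood at 43.7 and 3.45 CPM and Irf8 at 41.1 and 12.9 CPM. The monocyte list was not used, here or below, to mark members as carrying UMIs of other cells. Scrublet, a doublet caller, marked 51 control members (4.98%) and 23 DKO members (2.95%) at the threshold found in the DKO library, and all were kept in the main values.

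As a share of all kept barcodes, immature neutrophils made up 5.19% in the control (exact Clopper-Pearson 95% interval 4.88 to 5.50) and 5.59% in the DKO (5.22 to 5.99). Within the neutrophil-signature barcodes the order was the opposite: members were 29.3% of 3497 in the control (27.8 to 30.9) and 24.6% of 3168 in the DKO (23.1 to 26.1). Mature barcodes were 47.7% of the signature barcodes in the control and 56.6% in the DKO, and Fcnb-positive early barcodes were 21.6% and 18.0%. The control file lists every barcode and was cut here at 500 UMIs, whereas the DKO file holds called cells only, and shares depend on this cut. With the rule applied after each barcode was thinned to 2000 UMIs, members were 8.82% and 8.87% of the barcodes kept.

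**Figure D1:**
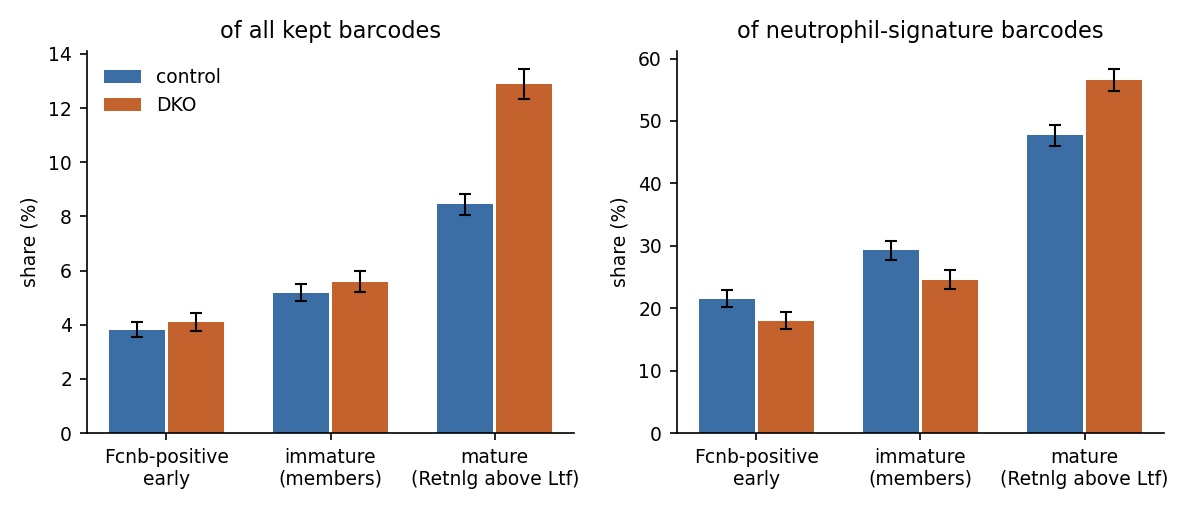
Share of Fcnb-positive early, immature (member) and mature neutrophil barcodes in the control and DKO libraries, in percent of all kept barcodes (left) and of neutrophil-signature barcodes (right); error bars are exact Clopper-Pearson 95% intervals for counting error. Members were 5.19% and 5.59% of kept barcodes, and 29.3% and 24.6% of signature barcodes.

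Along the path from early to mature cells, members were still high in specific granule transcripts, and Cxcr2 was still below its level in mature cells. They were compared within each library with Fcnb-positive early barcodes (754 control, 569 DKO) and with mature barcodes (1669 control, 1793 DKO), and a gene was counted only where it differed at least 1.5-fold in the same direction in both libraries. Against early cells 17.9% of 5183 genes were higher in members and 18.1% were lower. Against mature cells 16.6% of 4910 genes were higher and 18.5% were lower. The members were sorted by genes that vary along this path, so these counts describe the rule's cells and carry no test. A gene was measured where its mean over members and the compared stage of both libraries was at least 20 CPM. It could pass through the stage where it was high, so the list counts below are not evidence of direction. The specific granule list also holds Ltf, Camp and Ngp, and the mature neutrophil list holds Retnlg. The rule used these genes, so it fixed part of those counts.

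Azurophil granule genes were already low in members. All 6 measured genes of that list, which also holds the progenitor marker Ms4a3, were lower than in early cells. Elane, neutrophil elastase, stood at 3917 CPM in control early cells against 84.5 CPM in control members, and at 1976 against 7.62 CPM for the DKO. Prtn3, proteinase 3, was lower than in early cells by a log2 ratio of -4.25 in the control and -7.10 in the DKO, Ctsg, cathepsin G, by -3.29 and -4.95, and Mpo, myeloperoxidase, by -3.23 and -5.49. Ms4a3, a marker of granulocyte-monocyte progenitors, differed by -3.75 and -4.52, and Nkg7, a granule membrane gene, by -3.96 and -5.18. The step down from early cells was the larger one in the DKO library for each of these 6 genes. The control values rest on few cells, since 74.8% of the azurophil UMIs of control members came from 10 barcodes. All 8 control members with at least 10 azurophil UMIs also carried UMIs of other cells.

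Gelatinase and migration genes had started. Of 5 gelatinase granule genes 4 were higher in members than in early cells, led by Mmp8, neutrophil collagenase, with log2 ratios of 5.03 (control) and 5.47 (DKO), and by Mmp9, gelatinase B, at 3.80 in both. Cxcr2, the receptor that draws neutrophils into blood, was higher than in early cells by 2.24 and 2.51 but lower than in mature cells by 2.54 and 2.53 on the log2 scale. Fpr2, a formyl peptide receptor, was higher than in early cells by 2.35 and 2.45, and S100a6, a calcium-binding protein, by 2.29 and 2.72. The kinase Map4k4 (3.05 and 3.36), Scrg1 (2.67 and 2.95), the homeobox factor Zfhx3 (2.25 and 2.26), Zswim6 (2.22 and 2.78) and Sh3glb1, a membrane-curving protein (2.18 and 2.69), completed the 10 leading genes. Of 15 listed genes of mature neutrophils 11 were higher in members than in early cells, and 20 of 22 were lower than in mature cells.

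Against mature cells, the 10 genes highest in members included a granule protein, a regulator of granule genes and several enzymes. Zmpste24, a protease that processes prelamin A, was higher by 4.37 (control) and 4.84 (DKO) on the log2 scale. Chil3, a chitinase-like granule protein, was higher by 3.84 and 4.41, and Cebpe by 2.69 and 2.56. Inhba, the activin A subunit (3.24 and 3.75), Fmnl2, a formin that builds actin filaments (3.35 and 3.21), Lta4h, the enzyme of leukotriene B4 synthesis (3.09 and 3.23), and Serpinb1a, an inhibitor of neutrophil proteases (2.08 and 2.18), were also among the 10 leading genes. Gm47071 (2.76 and 2.86), the phosphodiesterase Pde4d (2.67 and 3.16) and the Rac activator Tiam1 (2.33 and 2.40) were the others. Of 17 specific granule genes 13 were higher in members than in mature cells and none was lower, and the same held for 13 of 24 genes of the secretory pathway, which carries granule proteins through the endoplasmic reticulum.

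The 10 genes lowest in members against mature cells included a cytokine, a chemokine and an adhesion molecule. Cstdc4 was at 3.43 CPM in control members and 389 CPM in control mature cells, a log2 ratio of -6.76, and of -6.89 in the DKO. Il1b, the cytokine interleukin-1 beta, differed by -5.74 and -6.12, the chemokine Ccl6 by -5.35 and -6.10, and the adhesion molecule Jaml by -5.30 and -5.72. Sirpb1b, the lectin Clec4d, Gm5150, Cd101, the lipase Pla2g7 and Ifitm1 lay between -6.32 and -4.59 in both libraries. Of 22 interferon-stimulated genes 15 were lower in members than in mature cells, and of 10 against early cells 9 were higher.

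Members differed among themselves in the same order. They were split by the share of Retnlg in their Ltf plus Retnlg UMIs into those without Retnlg (277 control, 202 DKO), those up to 0.25 (548 and 405) and those from 0.25 to 0.5 (200 and 172). Across these bins Mmp8 stood at 190, 1209 and 4068 CPM in control members, and at 999.7, 2604 and 5145 CPM in DKO members. Chil3 ran the other way, at 5738, 4654 and 1869 CPM in control members and 4792, 3901 and 1655 CPM in DKO members. Cebpe stood at 457, 375 and 208 CPM (control) and at 467, 401 and 262 CPM (DKO). Cxcr2 stood at 84.1, 172 and 339 CPM (control) and at 83.1, 180.2 and 443 CPM (DKO), while mature cells held 1040 and 1218 CPM. Fmnl2 and Olfm4 were higher in every member bin than in the early or the mature cells of the same library, so these genes peaked inside the immature stage.

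**Figure D2:**
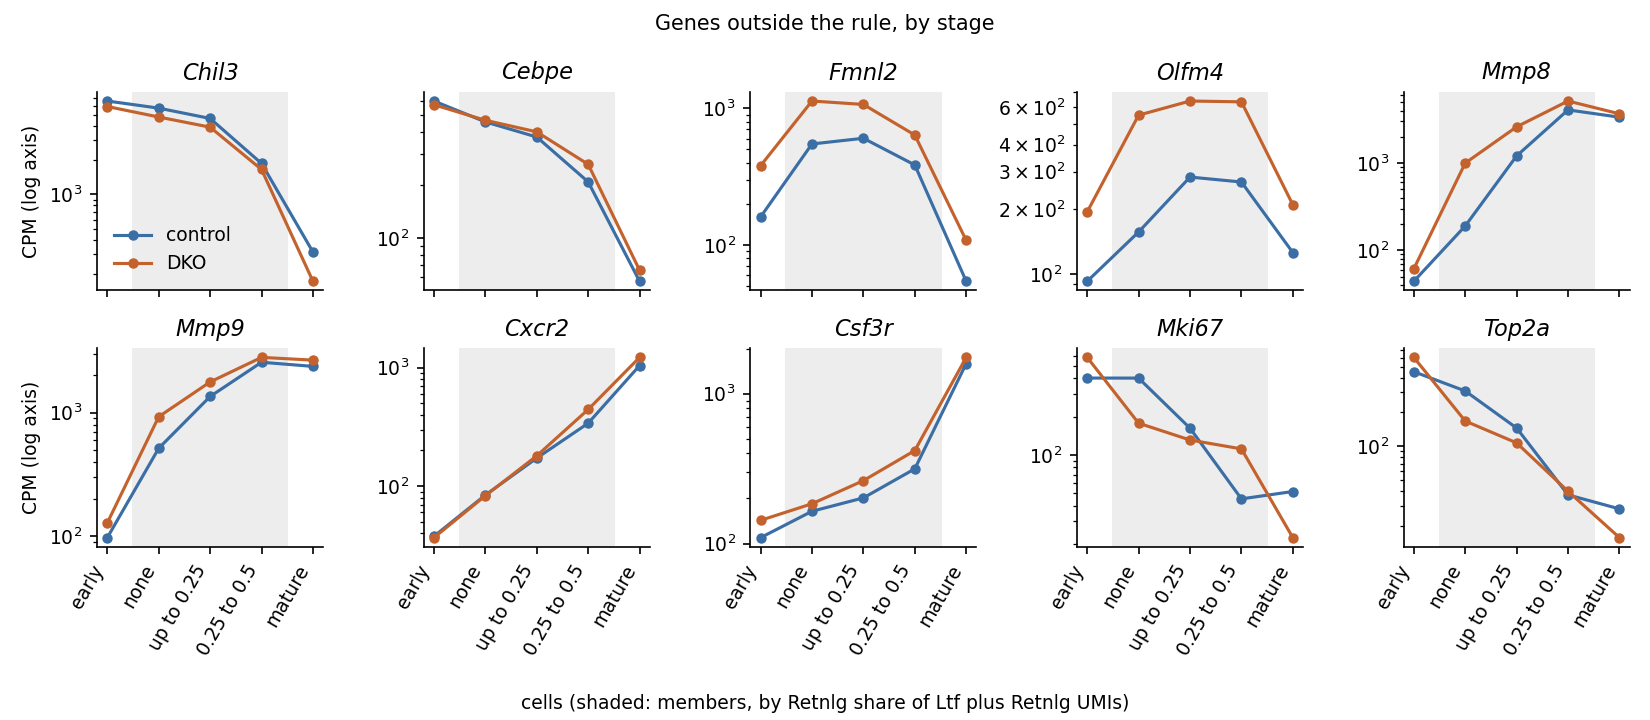
CPM of summed UMIs (log axis) of 10 genes that the rule did not use, in early barcodes, in the 3 bins of members by their Retnlg share (shaded) and in mature barcodes, with 1 line for the control and 1 for the DKO library. Mmp8 and Mmp9 climbed within the members, Chil3 and Cebpe declined, and Fmnl2 and Olfm4 peaked in them; the DKO line lay above the control line at every stage for Fmnl2, Olfm4, Mmp8 and Mmp9.

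Cell by cell, Ngp, Camp and Ifitm6 were found in nearly every member, whereas many members lacked Mmp8. Per 10000 UMIs of a cell, Ngp had a median of 298 in control members (5th to 95th percentile 112 to 455) and of 289 in DKO members (114 to 432), and the libraries overlapped over nearly the whole range. Camp had medians of 363 (125 to 685) and 309 (130.0 to 625), and Ifitm6 of 36.8 (8.49 to 76.2) and 25.7 (6.33 to 50.9). Mmp8 had medians of 5.24 (0 to 62.5) and 31.2 (0 to 76.9), with no UMI in 408 control members (39.8%) and in 190 DKO members (24.4%).

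Cell cycle transcripts were scarcer in DKO than in control members. To set depths equal for this count, each barcode was thinned to 2000 UMIs (81 control and 46 DKO members with fewer were left out). A barcode was counted where at least 2 UMIs of the S phase list or 2 of the G2/M list remained, averaged over all possible draws. Members and their Retnlg bins were still chosen at full depth, where DKO members were deeper (median 6860 against 5954 UMIs). The share was not computed with the rule itself applied at 2000 UMIs. With thinned counts 27.9% of control members (95% interval 25.02 to 30.8) and 15.4% of DKO members (12.9 to 18.2) carried cell cycle UMIs, and without thinning 57.3% and 43.1% did. Mature neutrophils, which do not divide, gave 17.8% and 11.4%, the level to be read as background, so that the background was itself the lower one in the DKO. Early barcodes gave 77.0% (73.7 to 79.9) and 76.1% (72.4 to 79.6), and these intervals overlapped.

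Within the members the share was highest in the cells that had no Retnlg. There it was 47.2% in the control (40.5 to 53.9) and 24.7% in the DKO (18.5 to 32.1). In the bin up to 0.25 it was 24.3% in the control (20.7 to 28.2), still above the level of control mature cells (15.8 to 19.9). In the DKO that bin gave 13.7% (10.4 to 17.4), and this interval overlapped that of DKO mature cells (9.89 to 12.99). In the bin from 0.25 to 0.5 the share was 14.8% and 10.1%, at or under the level of mature cells in both libraries. Against early cells all 16 S phase genes and all 22 G2/M genes measured were lower in members of both libraries, and against mature cells all 16 G2/M genes measured were higher. Genes could be measured through the stage where they were high, such as Tpx2 against mature cells. It stood at 58.7 and 35.8 CPM in members and at 10.8 and 4.70 CPM in mature cells. These counts are therefore not evidence of direction.

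**Figure D3:**
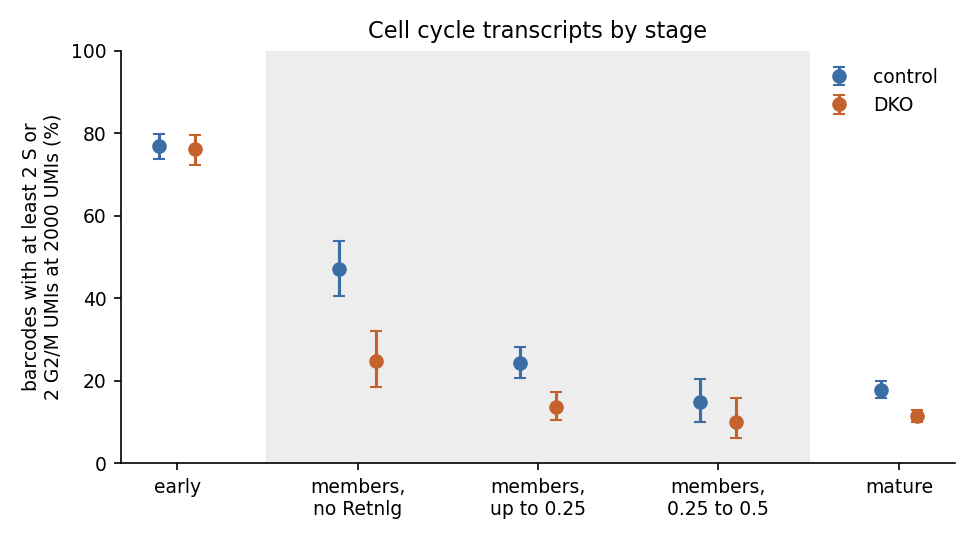
Percent of barcodes with at least 2 S phase or 2 G2/M UMIs at 2000 UMIs per barcode in early, member (3 Retnlg bins, shaded) and mature barcodes of the control and DKO libraries, with exact Clopper-Pearson 95% intervals on counting error. The early barcodes of the libraries overlapped at 77.0% and 76.1%, and the intervals of the members without Retnlg, at 47.2% and 24.7%, did not.

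Gene by gene, DKO members were set against control members over 4976 genes with a mean of at least 20 CPM, as the log2 ratio of DKO to control CPM with 1 count added. Of these, 211 genes (4.24%) were at least 1.5-fold higher in the DKO and 341 genes (6.85%) were at least 1.5-fold lower, and the median of all genes was 0.09. Members with UMIs of other cells weighed on the lower side: without them 253 of 4736 genes were higher and 176 were lower. The split also moved with the scaling, to 115 higher and 468 lower with a median-of-ratios factor and to 190 and 540 with CPM computed without hemoglobin, mitochondrial and signature genes. Summed UMIs were 6709101 over control members and 5509037 over DKO members, while the median per member was lower in the control, at 5954 against 6860 UMIs.

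The targeted genes were sparse. Ddx41 (chromosome 13, 55530410 to 55536658) had 91 UMIs in control members and 46 in DKO members, or 13.6 and 8.35 CPM, a log2 ratio of -0.68 (95% interval -1.24 to -0.17). Cgas (chromosome 9, 78430526 to 78443237) had 51 and 16 UMIs, or 7.60 and 2.90 CPM, a ratio of -1.33 (-2.30 to -0.55), which was -0.21 when the rule was applied at 2000 UMIs per barcode. In early barcodes Cgas had 293 UMIs in the control and 232 in the DKO, 24.7 and 24.0 CPM. Whether the 3' ends counted here lie inside the deleted parts of these genes is not given in the sources used here, so these UMIs do not check the genotypes. Tbk1, the kinase downstream of the cGas pathway, stood at 45.3 and 45.6 CPM (ratio 0.01, -0.24 to 0.25).

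Outside the azurophil group, 2 granule genes with a mean of at least 20 CPM differed by at least 1.5-fold. Of 17 specific granule genes, all measured, 16 lay within 1.5-fold, 1 was higher and none lower, with a list median of -0.06. Ngp differed by -0.02, Camp by -0.18, Lcn2 by -0.24 and Ltf by 0.19 on the log2 scale, and Ifitm6 by -0.48, from 3662 to 2632 CPM. Serpinb1a (-0.54) and Hp, haptoglobin (-0.46), lay at the lower end, and Adpgk (0.41) and Itgam, the integrin chain CD11b (0.33), at the higher end. All 7 genes of the NADPH oxidase, which makes superoxide, lay within 1.5-fold, from Cyba at -0.40 to Hvcn1 at 0.41.

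Olfm4, olfactomedin-4 (chromosome 14, 79984081 to 80023139), was the exception among specific granule genes. It is a granule protein known to be made by only a subset of neutrophils. It had 1668 UMIs in control members and 3393 in DKO members, 248.6 and 616 CPM, a log2 ratio of 1.31 (1.22 to 1.39). The difference lay in the number of cells more than in the amount per cell: 71 control members (6.93%) and 119 DKO members (15.3%) had an Olfm4 UMI, with a median of 22 and 28 UMIs in those cells. At 2000 UMIs per barcode the shares were 6.67% (5.17 to 8.46) and 14.0% (11.6 to 16.8), against 0.0705% and 0.172% in B-lineage barcodes. The DKO share was also the higher one in early barcodes, at 10.8% against 4.86%, and in mature barcodes, at 7.62% against 5.02%.

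Mmp8, the collagenase of specific and gelatinase granules (chromosome 9, 7558456 to 7568485), was the other. It had 9686 UMIs in control members and 15071 in DKO members, 1444 and 2736 CPM, a ratio of 0.92 (0.89 to 0.96). At 2000 UMIs per barcode 54.8% of control members (51.6 to 58.1) and 72.2% of DKO members (68.8 to 75.4) carried it, against 2.03% and 1.55% of B-lineage barcodes. The ratio was 0.48 in early and 0.13 in mature barcodes. The other gelatinase genes with a mean of at least 20 CPM lay within 1.5-fold. Mmp9 was at 0.40, Mmp25, a membrane-bound metalloprotease, at 0.35, Cfp, properdin, at 0.06, and the protease Ctsd at -0.22. Under that level, Slc11a1 (10.9 and 17.2 CPM, 0.66) and Fgl2 (8.94 and 3.63 CPM, -1.25) were past 1.5-fold in opposite directions.

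**Figure D4:**
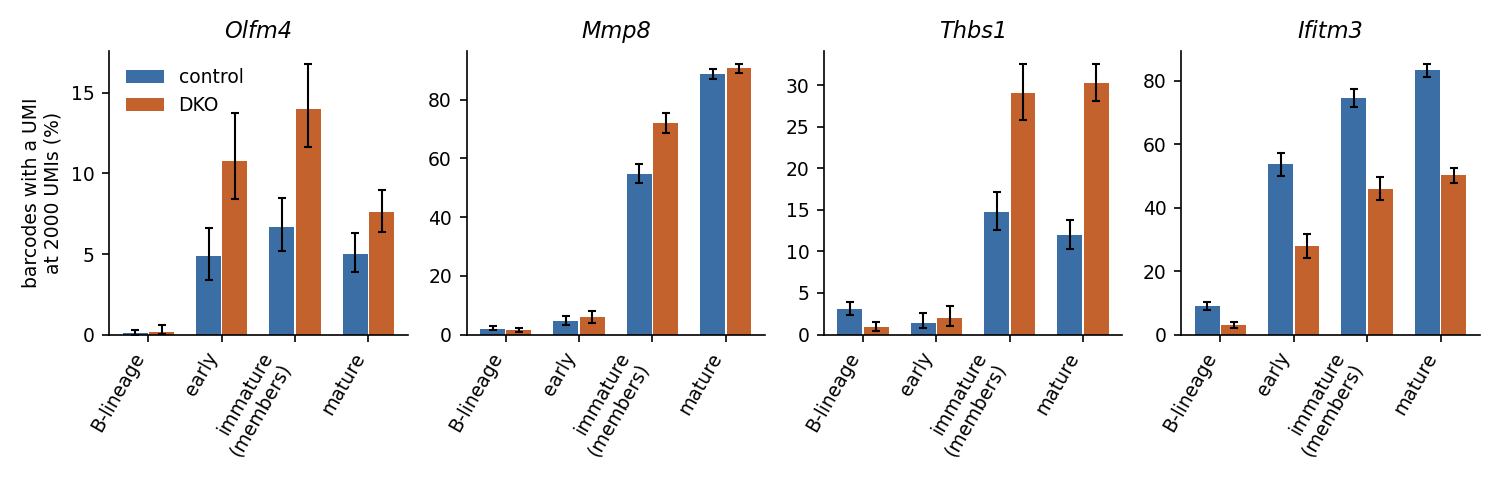
Percent of barcodes with a UMI of Olfm4, Mmp8, Thbs1 and Ifitm3 at 2000 UMIs per barcode in B-lineage, early, immature (member) and mature barcodes of the control and DKO libraries, with exact Clopper-Pearson 95% intervals on counting error. In members the DKO share was above the control share for Olfm4 (14.0% against 6.67%), Mmp8 (72.2% against 54.8%) and Thbs1 (29.1% against 14.7%) and below it for Ifitm3 (45.9% against 74.7%).

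The azurophil genes that had remained in members differed widely between the libraries, but few cells carried them. All 5 measured genes of the list, the progenitor marker Ms4a3 among them, were lower in the DKO, with a list median of -3.40. Prtn3 had 969 and 44 UMIs, Mpo 629 and 70, Elane 567 and 42, Ctsg 385 and 29, and Ms4a3 256 and 78. These genes passed the minimum of 20 CPM through the control alone, so their number is not evidence of direction. Of the control's azurophil UMIs 74.8% came from 10 barcodes, and 58.1% of control and 76.1% of DKO members had none. Leaving out the 8 control members and 1 DKO member with at least 10 azurophil UMIs left 1 measured gene, with a ratio of -1.01. All 9 of these barcodes also carried UMIs of other cells, and the control ones held a median of 28204.5 UMIs. Their part in the result beyond this was not tested.

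The 12 genes with the largest ratios above 0 among those with a mean of at least 100 CPM included Olfm4, Mmp8 and genes of adhesion, cytoskeleton and signalling. Thbs1, thrombospondin-1 (chromosome 2, 118111876 to 118127133), had 623 and 1346 UMIs, 92.9 and 244 CPM, a ratio of 1.39 (1.26 to 1.54), and 29.1% of DKO against 14.7% of control members carried it at 2000 UMIs per barcode. Antxr2, a receptor for collagen and for anthrax toxin, stood at 223 and 430 CPM (0.94), and Entpd1, the ATP-hydrolysing ectoenzyme CD39, at 96.1 and 175 CPM (0.87). Fmnl2 stood at 552 and 996 CPM (0.85), and Sipa1l1, a GTPase-activating protein of Rap, at 76.8 and 153 CPM (0.99). Tnfsf13b, the B-cell survival factor BAFF, stood at 76.2 and 137 CPM (0.85). Parp8, an ADP-ribosyltransferase, had a ratio of 1.07, the long noncoding RNA 1700047M11Rik 0.89, Rsrp1 0.86 and Aff2 0.84. All 12 ratios were above 0 in early and in mature barcodes too, and in members they stayed above 0 in all 16 alternative analyses, none under 0.65. The genes were picked by these ratios and the alternatives reuse the same libraries, so the kept sign is not separate evidence.

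Of receptors and adhesion molecules, 2 of 11 were higher and none lower, with a list median of 0.23. Itgal, the integrin chain of LFA-1, stood at 99.3 and 156 CPM (0.65) and Il6ra, the interleukin-6 receptor, at 59.9 and 97.8 CPM (0.71). Within 1.5-fold, Csf3r, the receptor of the neutrophil growth factor G-CSF, stood at 212 and 275 CPM (0.38), Cxcr4, which holds neutrophils in the marrow, at 159 and 211 CPM (0.41), and Cxcr2 at 179 and 210.4 CPM (0.23). Among 15 transcription factors Fosl2, an AP-1 factor, was higher at 55.3 and 111 CPM, and Irf8, a factor of monocytes and dendritic cells, was lower at 41.1 and 12.9 CPM (-1.66), a gene found in 6.34% of control and 3.08% of DKO members. Cebpe (0.08), Spi1, which encodes PU.1 (0.01), Cebpd (0.03) and Runx1 (0.54) lay within 1.5-fold. Of 17 genes of mature neutrophils 16 lay within 1.5-fold and Wfdc17 was lower (-1.01), with a list median of 0.15.

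Most proliferation genes were lower in DKO members. Of 20 G2/M genes 17 were lower in DKO members and none higher, with a median of -0.81, and of 7 measured S phase genes 6 were lower, with a median of -0.85. Ube2c, which drives the anaphase-promoting complex, had 1515 and 502 UMIs, 226 and 91.1 CPM (-1.31, -1.46 to -1.16). Top2a, the topoisomerase of dividing cells, stood at 167 and 108 CPM (-0.63), Birc5, survivin, at 117 and 48.5 CPM (-1.26), and Pcna, the replication clamp, at 49.2 and 25.4 CPM (-0.95). The G2/M genes Ccnb1, Plk1 and Aurka and the S phase genes Dut and Mcm7 reached 20 CPM in the control only, and are among those counted as lower, so these counts and medians lean towards lower. They also moved with the way members were chosen. When the whole rule was applied at 2000 UMIs per barcode, which took 1401 control and 1088 DKO barcodes, the G2/M median was -0.21 with 1 of 22 genes lower and the S phase median was -0.27 with 0 of 16 lower. Of Hist1h2ap, a replication-dependent H2A gene, 2300 UMIs were counted in control and 241 in DKO members (-2.96), and the ratio was -2.31 in early and -2.72 in mature barcodes. It has near-identical copies, between which the authors' counting could divide reads, so its value is uncertain.

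Ifitm3 and several other interferon-stimulated genes were lower in the DKO. Of 13 measured, 7 were at least 1.5-fold lower and none higher, with a list median of -0.996, and of 37 genes in the files only these 13 had a mean of at least 20 CPM. Under that level, Isg15 had 140 UMIs in control and 23 in DKO members and Ifit1 had 65 and 5. Ifitm3 (chromosome 7, 141009586 to 141010770), which blocks virus entry, had 5658 and 1932 UMIs, 843 and 351 CPM, a ratio of -1.27 (-1.34 to -1.19), and 74.7% against 45.9% of members carried it at 2000 UMIs per barcode. Oas3, a sensor of double-stranded RNA, stood at 61.7 and 25.2 CPM (-1.28), Trim30a at 79.7 and 37.9 CPM (-1.07), Ifi27l2a at 86.9 and 12.7 CPM (-2.76), and Rsad2, viperin, at 28.5 and 12.5 CPM (-1.17). Bst2, tetherin (-2.03), which is also on the dendritic list, and Parp14, at 27.7 and 13.8 CPM, were the others past 1.5-fold, and Ifi27l2a, Rsad2, Bst2 and Parp14 reached 20 CPM in the control only, so the count and the list median are not evidence of direction. Samhd1 (0.15), Cmpk2 (0.05) and Ddx58 (-0.25) lay within it.

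Most of these differences were seen in the neighbouring stages as well. Ifitm3 differed by -1.44 in early and -1.40 in mature barcodes, Oas3 by -1.64 and -1.06, and Rsad2 by -1.41 and -1.11. In mature barcodes 19 of 25 interferon-stimulated genes were lower, with a median of -1.15, where 7.74% of all genes were lower and 6.52% higher. In early barcodes 4 of 8 were lower and none higher, where 3.62% of all genes were lower and 12.7% higher. In these stages too a gene could reach the minimum of 20 CPM through the control alone, so these counts are not evidence of direction. Without the members that carried UMIs of other cells 5 of 10 genes were lower and the median was -0.60, and without Scrublet doublets 6 of 11 were lower with a median of -0.61, whereas the Ifitm3 ratio stayed between -1.35 and -1.22 in all alternatives. Monocyte UMIs did not mark a member in the first of these settings. The part of other cells in the remainder was not tested.

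**Figure D5:**
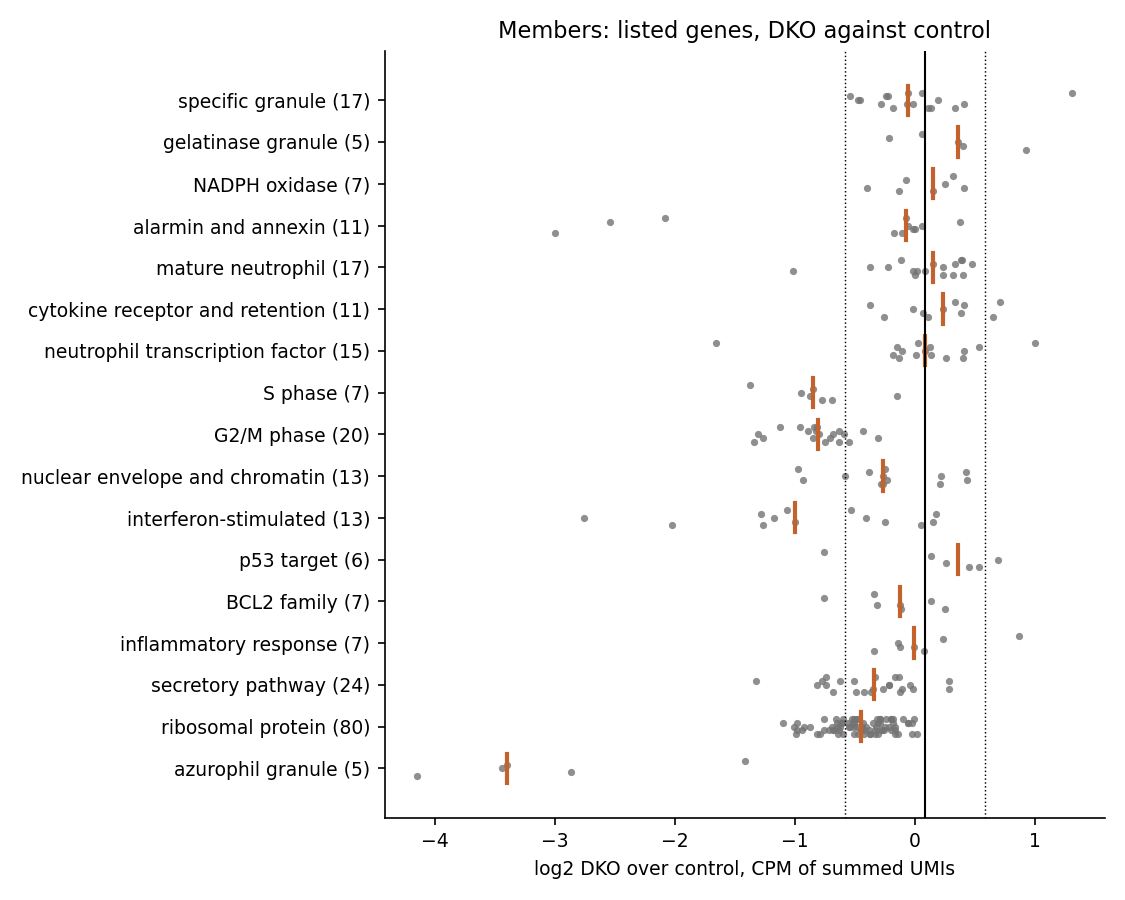
The log2 ratio of DKO to control CPM in members for each gene (points) of 17 lists, with the number of genes of at least 20 CPM in brackets and the list median as a bar. The solid line is the median of all genes (0.09) and dotted lines mark 1.5-fold; S phase, G2/M, interferon-stimulated and azurophil medians lay beyond the lower one, while specific granule, NADPH oxidase and transcription factor medians lay near the solid line.

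Ribosomal protein genes gave a small shift in members that was not carried by the typical member. Of 80 genes 26 were lower, none was higher and 79 lay below 0, with a median of -0.45. Rpl3 stood at 279 and 130.0 CPM (-1.10), Rpl10a at 238 and 118 CPM (-1.01), Rpl35 at 163 and 82.0 CPM (-0.99), and Rpl15 (-0.98) and Rpl14 (-0.98) were also among the 12 lowest ratios. Rps27 (0.02) and Rpl37a (-0.01) lay near 0. In early barcodes Rpl3 was at -0.58, Rpl10a at -0.43, Rpl35 at -0.67, Rpl15 at -0.65 and Rpl14 at -0.65. In mature barcodes the same genes were at -1.30, -1.45, -1.29, -1.18 and -1.49. The part of other cells' UMIs in those stages was not tested. The median member gave 2.47% of its UMIs to this list in the control and 2.39% in the DKO. At least 5% was given by 88 control and 27 DKO members, which held 43.2% and 20.5% of the list's UMIs, and of which 70.5% and 66.7% carried UMIs of other cells. Without all members with such UMIs the median was -0.09 and 1 of 80 genes was lower. Many of these genes have processed copies in the genome, which the counting could confuse with them.

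The other large ratios below 0 were of genes with the same direction in all 3 stages. Plac8, a gene of myeloid and lymphoid cells, had 2920 and 929 UMIs (-1.37), Npm1, the nucleolar chaperone nucleophosmin, 943 and 351 (-1.14), Ptma, prothymosin alpha, 4934 and 1935 (-1.07), and Tspo, a protein of the outer mitochondrial membrane, 4177 and 1737 (-0.98). Plac8, Npm1 and Ptma moved with the settings, with ratios nearest 0 of -0.72, -0.24 and -0.37, and Tspo moved less, to -0.86. Of the alarmin and annexin list 3 of 11 genes were lower, Lgals1 (-2.54), S100a10 (-2.08) and S100a4 (-3.00), each found in under 10% of members, whereas Anxa1 (-0.05) and S100a11 (-0.07) lay near 0. S100a8 and S100a9, the most abundant transcripts of the members, differed by -0.02 and -0.17. Of 24 secretory pathway genes 7 were lower, among them Ssr4 (-1.32), Manf (-0.82) and Spcs2 (-0.78), with a median of -0.34. Of 13 genes of chromatin and the nuclear envelope, which is remodelled as the nucleus becomes lobed, Hmgn2 (-0.98) and Banf1 (-0.93) were lower, while Lbr, the lamin B receptor, was at 0.21 and Lmnb1 at -0.25.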

How the data were processed

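Single-cell libraries (Chromium Single Cell 3' v3) of 1 control and 1 DKO mouse were used. The authors deposited raw UMI counts per gene and barcode made with Cell Ranger (7.1.0 per the file headers; mm10 per the submitters' processing notes). The control file lists 1518290 barcodes and 135693452 UMIs, the DKO file 14142 called barcodes and 117725934 UMIs, over 32285 genes, of which 32158 matched GENCODE M21 by identifier. No value column lacked a sample.

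From these counts, members were found by the rule, UMIs were summed and scaled to CPM, and log2 ratios (1 count added) were given exact conditional binomial 95% intervals. Shares have Clopper-Pearson intervals. PCR and capture are not covered, only counting error. Named were the targeted genes, the 4 markers, the 12 highest and 12 lowest ratios with mean CPM of at least 100, and for stages the 10 highest and 10 lowest; list genes were also named. Members and lists were chosen with earlier results of these data known. Scrublet ran in scanpy 1.11.5 (Python 3.11.15, numpy 2.4.6, scipy 1.17.1). Its own threshold marked 0 control barcodes, so the DKO threshold served both libraries and marked 1.59% and 1.42%. In the B-lineage, barcodes had at least 3 Cd79a plus Cd79b UMIs. On simulated counts for DKO against control members over 4976 genes, 100% of 200 genes changed 2-fold were recovered and 95.4% of intervals held the true value. These counts were drawn under the counting model of the intervals, so they check the computation only. They do not cover UMIs that cluster in few cells. Free RNA, estimated from the hemoglobin of members against that of all barcodes with at least 500 UMIs, was 2.80% and 1.69% of member UMIs. These values are not upper bounds. Hemoglobin was 28.2% of UMIs in those control barcodes but 14.5% in near-empty control barcodes, and the DKO file holds no near-empty barcodes.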

Additional observations from a re-analysis of the deposited data

Results flagged for a closer look

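For 12 genes the DKO ratio in members and in Fcnb-positive early barcodes pointed in opposite directions, with both counting intervals off 0, and for 1 gene the same held between members and mature barcodes. The difference between stages was not tested, since each genotype had 1 library. Of these, 9 cell cycle genes were lower in DKO members and higher in DKO early barcodes, on the log2 scale: Pcna at -0.95 and 0.21, Ccna2 at -0.89 and 0.17, and Hmmr at -0.85 and 0.26. Tpx2 stood at -0.71 and 0.31, Rrm1 at -0.69 and 0.27, Cenpe at -0.68 and 0.27, Cenpf at -0.63 and 0.29, Top2a at -0.63 and 0.42, and Nusap1 at -0.59 and 0.35. Cdkn2c, an inhibitor of Cdk4 and Cdk6, stood at -0.78 and 0.33. Other cell cycle genes were lower in both, such as Ube2c at -1.31 and -0.34 and Birc5 at -1.26 and -0.24, and the G2/M median in early barcodes was 0.03. With the rule applied at 2000 UMIs per barcode the G2/M median in members was -0.21, with 1 of 22 genes lower.

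Vcam1, a macrophage-list gene, stood at -2.28 in members and 0.29 in early barcodes; its 472 control UMIs moved with the other macrophage genes given in the report. Retnlg stood at 0.31 in members and -1.13 in early barcodes, and it is a gene of the rule. Cdk6 stood at 0.28 in members and -0.72 in mature barcodes.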

How the results depend on the processing

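Of 12 list medians recomputed under every setting that could give them, only the transcription factor median changed sign, from 0.083 to -0.0037 with a median-of-ratios factor. The median of all genes went from 0.087 to -0.00066 at a filter of 5 CPM. Of the named genes only Ngp changed sign, keeping it in 14 of 15. With the rule at 2000 UMIs per barcode, member shares were 8.82% and 8.87%, lower genes 223, and list medians -0.12 (specific granule), -0.21 (G2/M), -0.27 (S phase) and -0.52 (interferon-stimulated). Above a UMI threshold set an order of magnitude under the deepest barcodes (4869 and 6164 UMIs), shares were 6.94% and 6.04% and the specific granule median -0.015. A signature of at least 10% gave a ribosomal median of -0.34. Without Scrublet doublets the interferon-stimulated median was -0.61 and the ribosomal -0.26. Settings added after seeing the data left out members with UMIs of other cells (shares 3.83% and 4.67%, lower genes 176, interferon-stimulated -0.60, ribosomal -0.089, cell cycle 24.7% and 12.4%) or with 10 azurophil UMIs (ribosomal -0.26). CPM without hemoglobin, mitochondrial and signature genes gave 540 lower genes and a specific granule median of -0.11. A median-of-ratios factor gave 115 higher genes and medians of -0.15 (specific granule) and -0.53 (ribosomal). A filter of 5 CPM gave 385 higher and 1021 lower genes, and one of 100 CPM gave 71 and 61, with an interferon-stimulated median of -0.41. Equal weight per cell gave 222 lower genes, G2/M -1.06 and ribosomal -0.21, and equal Retnlg bins a specific granule median of -0.020. Cell cycle shares were 60.7% and 45.3% with 1 UMI, 57.3% and 43.1% without thinning and 20.5% and 10.4% at 1000 UMIs. Beyond what each setting's construction shows, the cause was not tested. No paired analysis was possible because each genotype had 1 library, and no library could be left out. Depth limits Ddx41 and Cgas, at 16 to 91 UMIs.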

Other observations

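Genes of survival and stress differed little between DKO and control members. Of 6 measured p53 targets Trp53inp1 was higher, at 66.2 and 107 CPM (0.69), and the pore-forming Bax was lower, at 38.2 and 22.5 CPM (-0.76), while Btg2 (0.45), Mdm2 (0.26) and Ccng1 (0.14) lay within 1.5-fold, beside 4.24% and 6.85% of all genes past it in the 2 directions. Of 7 BCL2 family genes only Bax was past 1.5-fold, and Mcl1, the survival factor of neutrophils, stood at 226 and 268 CPM (0.25). Of 7 inflammatory genes Il1rn, the interleukin-1 receptor antagonist, was higher at 26.4 and 48.1 CPM (0.86), and Nfkbia (-0.01) and Zfp36 (0.08) lay near 0. Of 7 genes of cell cycle exit Cdkn2c alone was past 1.5-fold, while Cdkn1b, which encodes p27, was at 0.42 and Cdkn2d at -0.48.

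In early barcodes 0 of 22 G2/M genes and 0 of 18 S phase genes were past 1.5-fold in either direction, with medians of 0.03 and 0.05, where 12.7% of all genes were higher and 3.62% lower. In mature barcodes 4 of 5 measured G2/M genes were lower, where 7.74% of all genes were. Of these genes Ube2c (49.7 and 16.0 CPM) and Top2a (28.1 and 15.7 CPM) reached 20 CPM in the control only, so the count is not evidence of direction.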
